A study of Mus musculus with 6 samples.

Results

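Expression of 9 genes around the FOXO transcription factors was followed in sorted bone marrow hematopoietic stem cells (HSCs) of Cdk19 knockout and wild-type mice. They are Foxo1, Foxo3 and Foxo4, the alpha-arrestin genes Txnip, Arrdc3 and Arrdc4, and the signalling genes Pik3ip1, Irs2 and Tsc1. A gene was taken as the brightest transcript cluster, the summary of the probes that the array assigns to a gene locus, whose platform symbol is exactly that name. All 9 had 1 such cluster each, among 30145 genes named by a single symbol and 65956 clusters in all. All 9 passed the filter that left out the dimmest 40% of clusters.

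The knockout group held 3 arrays of HSCs from CDK19-/- mice and the wild-type group 3 arrays of HSCs from WT mice, all aged 6-8 weeks. Per the labels, marrow was depleted of lineage-positive cells and HSCs were sorted by flow cytometry, with no treatment of the animals stated. The labels call the arrays biological replicates. They give neither the animals behind each array, the sex, the gate, the deleted part of Cdk19 nor whether the deletion was limited to blood cells. The deleted gene encodes a kinase that belongs to Mediator, the complex between transcription factors and RNA polymerase II.

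The deposited values were read as log2, so fold sizes rest on that reading. Array medians lay between 4.40 and 4.48. Cdk19 itself measured 11.49, 11.42 and 11.51 in knockout HSCs, against 12.49, 12.45 and 12.38 in wild-type HSCs, lower on every knockout array. Kit and Cd34, the brightest of the stem cell markers listed, averaged 14.06 and 15.82 in knockout HSCs, and 14.53 and 15.97 in wild-type HSCs. Of 8 tested stem cell markers 2 fell, Kit by 0.47 and Hlf by 0.56, beside 5.87% of all named genes called lower. Fgd5 averaged 5.21 in knockout and 5.36 in wild-type HSCs, and Hoxb5 was too dim to test. The granulocyte and macrophage marker Mpo averaged 16.87 in knockout and 16.93 in wild-type HSCs. The purity of the sorted cells was not tested. Slamf1 and Procr, surface markers often used to gate mouse HSCs, averaged 5.65 and 7.37 in knockout HSCs, against 5.78 and 7.29 in wild-type HSCs, above the filter limit of 4.09.

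FOXO proteins are forkhead transcription factors that act below insulin and growth factor receptors. When these receptors activate PI3K and AKT, AKT phosphorylates FOXO proteins and they leave the nucleus. When the pathway is quiet they enter the nucleus and switch on genes of cell cycle arrest, antioxidant defence, autophagy and cell death. In mice, combined loss of Foxo1, Foxo3 and Foxo4 depletes HSCs and raises their reactive oxygen species. TXNIP, an alpha-arrestin, binds thioredoxin and restrains glucose uptake, and its gene is switched on by the glucose sensor MondoA. Mouse HSCs without Txnip lose quiescence under stress.

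In knockout HSCs, Irs2 and Foxo1 rose 2.56-fold and 1.88-fold, Txnip fell by 1.35 on the log2 scale, and the other 6 genes did not pass the test. Across the 19940 genes with a tested, named cluster, 9.38% were called, 3.51% higher and 5.87% lower, and over all 39591 tested clusters 7.79% were called, 2.96% higher and 4.83% lower. The test was limma with an intensity trend, and a call needed a Benjamini-Hochberg adjusted p under 0.05 over all of these clusters. The median change of the 9 genes was -0.13, against 0.00 over all tested clusters, and their median absolute change was 0.19, against 0.11. The groups did not overlap for 7 of the 9 genes, against 26.5% of all tested clusters. The 9 genes were chosen with earlier results of these arrays known, so these counts are a description.

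**Figure D1:**
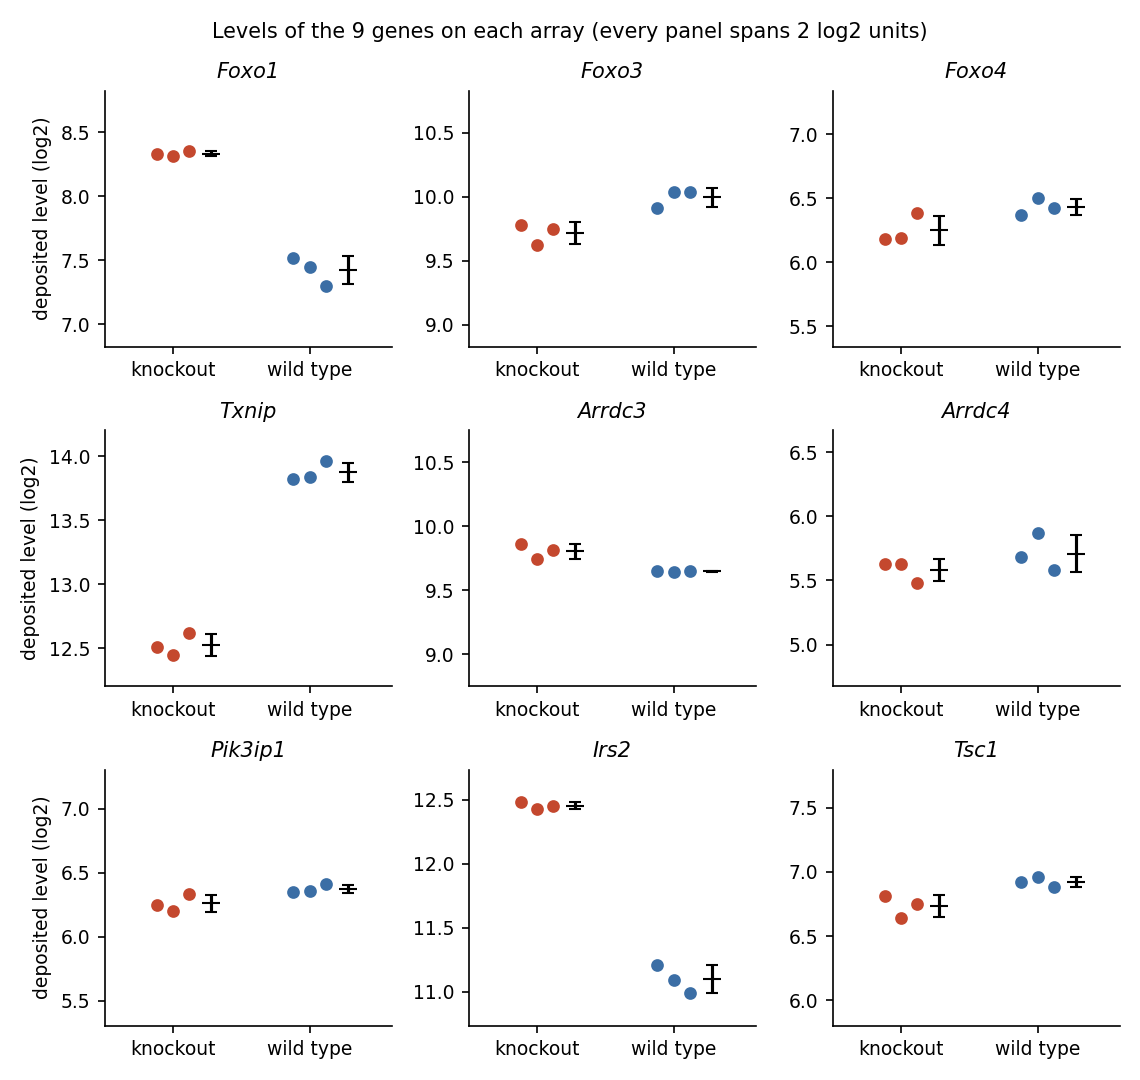
Deposited level, read as log2 (vertical axis, every panel spanning 2 units), of each gene on the 3 knockout arrays (red, left) and 3 wild-type arrays (blue, right), with the mean and SD in black. Foxo1 and Irs2 lie higher and Txnip lower in knockout HSCs by far more than the spread, while Foxo4 and Arrdc4 overlap between genotypes.

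Foxo1, the family member best known for lymphocyte development and insulin responses, measured 8.33, 8.31 and 8.35 in knockout HSCs, against 7.52, 7.45 and 7.30 in wild-type HSCs. All knockout arrays lay above all wild-type arrays. The means were 8.33 ± 0.02 and 7.42 ± 0.11 (SD, n = 3 each), a rise of 0.91 on the log2 scale (SE 0.07; adjusted p = 0.0014 by limma). This was the 225th largest rise among the 39591 tested clusters. The call held in all 6 runs that left out 1 array.

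Foxo3, the member tied most closely to HSC maintenance in mice, measured 9.78, 9.62 and 9.75 in knockout HSCs, against 9.91, 10.04 and 10.04 in wild-type HSCs. Every knockout array was lower, by a mean of -0.28 (SE 0.07, 95% interval -0.45 to -0.11), and the gene did not pass (limma adjusted p = 0.063). It passed after quantile normalization (adjusted p = 0.039) and with the dimmest 60% of clusters left out (0.048). Foxo4, on the X chromosome, measured 6.18, 6.19 and 6.38 in knockout HSCs, against 6.37, 6.50 and 6.42 in wild-type HSCs. Here knockout array 3 lay within the wild-type range, and the difference of -0.18 (95% interval -0.37 to 0.01) did not pass (limma adjusted p = 0.26). The intervals of Foxo3 and Foxo4 lie below that of Foxo1, which ran from 0.73 to 1.08. The difference between the changes of these genes was not tested. Foxo6, the remaining member of the mouse family, was too dim to test.

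Irs2 encodes the adaptor that carries the signal of insulin and insulin-like growth factor receptors to PI3K, and in mouse liver it is itself switched on by FOXO1. Its level was 12.48, 12.43 and 12.45 in knockout HSCs, against 11.21, 11.09 and 10.99 in wild-type HSCs. The knockout arrays lay close together and all above wild type. The means were 12.45 ± 0.03 and 11.10 ± 0.11 (SD, n = 3 each), a log2 change of 1.36 (SE 0.07; limma adjusted p = 2.1e-04). Irs2 ranked 70th among rises, and it was called in all 6 runs that left out 1 array.

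Pik3ip1, a membrane protein that binds PI3K and inhibits it, measured 6.25, 6.20 and 6.33 in knockout HSCs, against 6.35, 6.36 and 6.41 in wild-type HSCs. The ranges nearly touched, and the difference of -0.11 (95% interval -0.27 to 0.04) did not pass (limma adjusted p = 0.38). Tsc1 encodes hamartin, which with its partner TSC2 restrains the growth kinase complex mTORC1, and its loss drives mouse HSCs out of quiescence. It measured 6.81, 6.64 and 6.75 in knockout HSCs, against 6.92, 6.96 and 6.88 in wild-type HSCs. Each knockout array was lower, but the difference of -0.19 (95% interval -0.35 to -0.02) did not pass over all clusters (limma adjusted p = 0.18).

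Txnip, the brake on thioredoxin and glucose uptake, measured 12.51, 12.45 and 12.62 in knockout HSCs, against 13.82, 13.84 and 13.96 in wild-type HSCs. Every knockout array lay below every wild-type array, by far more than the spread within either group. The means were 12.53 ± 0.09 and 13.87 ± 0.08 (SD, n = 3 each), a log2 change of -1.35 (SE 0.06; limma adjusted p = 2.1e-04), or 2.54-fold lower. It was the 77th largest fall and was called in all 6 runs that left out 1 array.

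The other alpha-arrestins did not share a fall of that size. Arrdc4, which like Txnip is switched on by MondoA, measured 5.63, 5.63 and 5.48 in knockout HSCs, against 5.68, 5.87 and 5.58 in wild-type HSCs. The groups overlapped, with a difference of -0.13 (95% interval -0.36 to 0.10; limma adjusted p = 0.51). Arrdc3, an adaptor that brings ubiquitin ligases to membrane receptors, measured 9.86, 9.74 and 9.81 in knockout HSCs, against 9.65, 9.64 and 9.65 in wild-type HSCs. All knockout arrays were above wild type by a small margin of 0.16 (95% interval 0.02 to 0.29), and the gene did not pass (limma adjusted p = 0.16). The interval of Txnip, -1.50 to -1.19, lay below both.

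**Figure D2:**
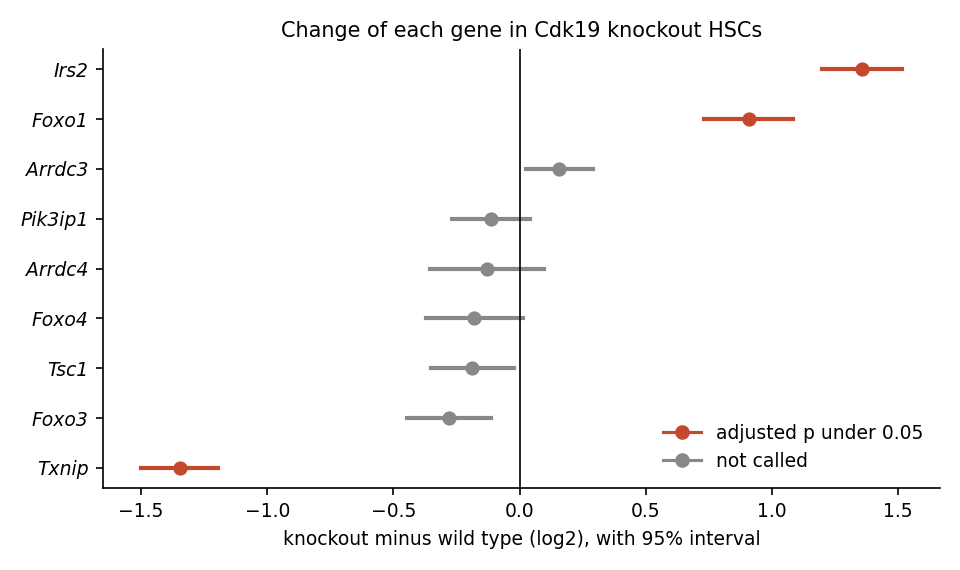
Change of each gene (horizontal axis, knockout minus wild type on the log2 scale) with its 95% interval from limma, red where the adjusted p was under 0.05 and grey otherwise. Irs2 at 1.36 and Foxo1 at 0.91 stand to the right, Txnip at -1.35 to the left, and the other 6 genes lie between -0.28 and 0.16.

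The upstream sequences of the 3 genes that changed, and of Arrdc4 for comparison with Txnip, were searched for the letters of known FOXO, MondoA and NF-Y binding motifs. RefSeq windows of the 250 bases before an annotated start (GRCm38.p6) were found for 8 of the 9 genes, 10 windows in all because Arrdc3 has 3 starts. Foxo4 was not matched. The motifs searched on both strands were GTAAACA, the core bound by FOXO proteins, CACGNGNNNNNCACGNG, the tandem E-box-like element bound by MondoA and its relatives, and CCAAT, which also reads ATTGG on the other strand and is bound by NF-Y. Matches do not overlap each other in the windows shown, and capitals mark them.
Txnip, chr3:96557707-96557956, plus strand: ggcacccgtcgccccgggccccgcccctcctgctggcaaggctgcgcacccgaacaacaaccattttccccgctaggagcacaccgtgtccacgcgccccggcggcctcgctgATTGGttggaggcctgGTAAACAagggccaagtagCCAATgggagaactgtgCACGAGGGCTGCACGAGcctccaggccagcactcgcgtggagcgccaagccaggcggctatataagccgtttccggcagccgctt
Arrdc4, chr7:68749239-68749488, minus strand: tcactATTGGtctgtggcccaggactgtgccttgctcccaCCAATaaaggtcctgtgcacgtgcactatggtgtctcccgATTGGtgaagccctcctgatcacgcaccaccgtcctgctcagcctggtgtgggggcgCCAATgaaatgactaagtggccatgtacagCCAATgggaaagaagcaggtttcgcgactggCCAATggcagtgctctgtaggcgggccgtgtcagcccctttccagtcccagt
Irs2, chr8:11008930-11009179, minus strand: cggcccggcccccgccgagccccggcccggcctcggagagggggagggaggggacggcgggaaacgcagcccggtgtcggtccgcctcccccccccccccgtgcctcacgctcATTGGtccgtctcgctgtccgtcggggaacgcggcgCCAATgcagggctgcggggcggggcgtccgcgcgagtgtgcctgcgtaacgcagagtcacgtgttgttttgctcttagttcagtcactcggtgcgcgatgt
Foxo1, chr3:52268087-52268336, plus strand: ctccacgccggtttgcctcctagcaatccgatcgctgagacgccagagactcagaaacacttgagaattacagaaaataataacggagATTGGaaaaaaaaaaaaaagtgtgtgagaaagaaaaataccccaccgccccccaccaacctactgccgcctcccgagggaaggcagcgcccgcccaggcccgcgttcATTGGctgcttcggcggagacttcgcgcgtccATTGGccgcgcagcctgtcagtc

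The Txnip window holds the FOXO core from 121 to 115 bases before the start and the tandem element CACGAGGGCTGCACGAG from 85 to 69 bases before it. Of 32851 RefSeq windows, 3.17% hold the FOXO core and 0.0457% (15 windows) the tandem element. The Txnip window is the 1 window with both. The pattern searched is 1 fixed form of the tandem element, and the Txnip sequence has that form. The low share of the tandem element, and the single window with both motifs, therefore depend on this choice of letters. Other forms of the tandem element were not counted. The windows of the other 7 genes hold neither of these exact letter strings. Other sequences that FOXO proteins or MondoA bind were not searched, so their presence in these windows is not known. CCAAT boxes are common, with a match in 33.8% of windows. There are 6 in the Arrdc4 window, 3 in that of Foxo1 and 2 each in those of Txnip and Irs2. A match is a description of letters, and binding was not measured.

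**Figure D3:**
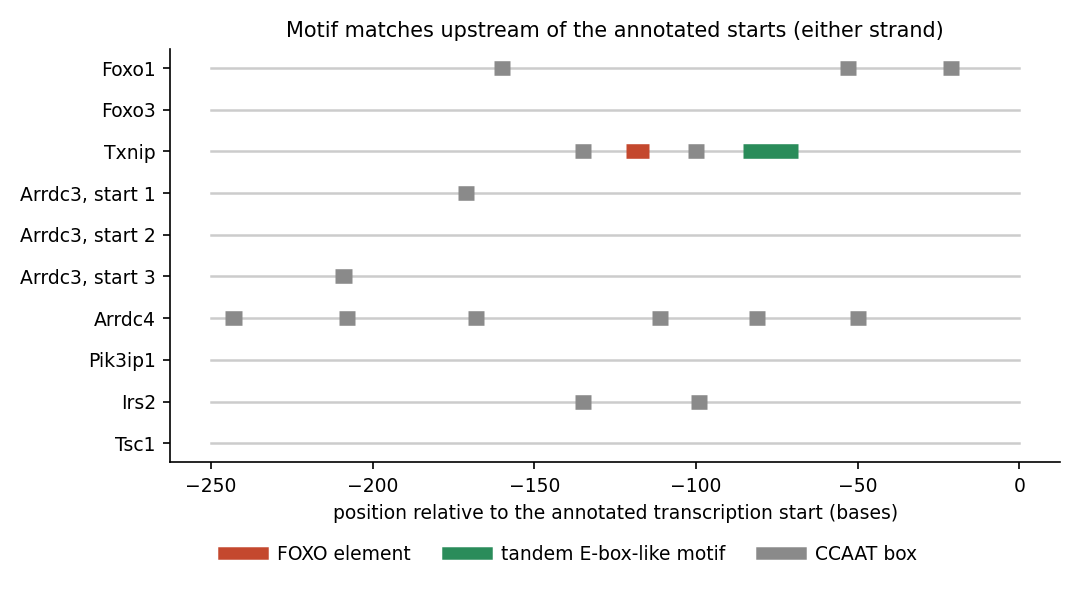
Positions of motif matches on either strand (horizontal axis, bases relative to the annotated transcription start) in the 250 upstream bases of the 8 genes with a RefSeq window, Arrdc3 having 3 starts of which starts 1 and 3 overlap. The FOXO core (red) and the tandem element (green) appear in the Txnip window, between 121 and 69 bases before the start.

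The pathway around these genes was described with 8 lists from textbook knowledge, written with earlier results of these arrays known. Over the lists, without the 9 genes, 114 genes were tested, of which 17 rose, 18 fell and 79 did not pass, beside 3.51% higher and 5.87% lower over all named genes. The same shares stand beside the count of each list below. The lists are short, so these counts are a description. Leaving out knockout array 1 or wild-type array 1 gave 11 rises, and leaving out wild-type array 2 or 3 gave 10. Falls numbered 11 when wild-type array 1 was left out and 9 when wild-type array 2 or 3 was. Their median absolute change was 0.14, against 0.10 over all named genes.

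Between the insulin receptor and AKT, 4 of 20 tested genes rose and 2 fell (list median -0.02). Pik3cb, a catalytic subunit of PI3K, measured 8.53, 8.40 and 8.45 in knockout HSCs, against 7.89, 7.92 and 7.92 in wild-type HSCs, a change of 0.55. Pik3cg and Pik3cd, the catalytic subunits enriched in blood cells, went the other way, with changes of -0.43 and -0.33. Pik3ap1, an adaptor that links receptors of immune cells to PI3K, rose by 0.42. Sgk1, a kinase related to AKT that also phosphorylates FOXO proteins, rose by 0.29. Phlpp1, a phosphatase of AKT, rose by 0.30 and was picked with its value known. These last 2 calls were lost in every run that left out 1 array (adjusted p = 0.086 to 0.13 for Sgk1 and 0.076 to 0.13 for Phlpp1). They were lost too with no filter (0.063 and 0.077) and when array medians were set equal (0.10 and 0.12). Pik3cd lost its call in 5 runs (0.065 to 0.11) and kept it without knockout array 3. The regulatory subunit gene Pik3r1 differed by -0.12, the phosphatase gene Inpp5d by -0.02 and Igf1r by -0.07, and these did not pass.

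Of 13 tested genes of the TSC and mTOR complexes, 1 rose and 2 fell (median 0.01). Ddit4, which encodes the stress-induced mTORC1 inhibitor REDD1, measured 9.77, 9.41 and 9.85 in knockout HSCs, against 8.63, 8.80 and 8.80 in wild-type HSCs. Its change was 0.93 (SE 0.12; limma adjusted p = 0.0078), with knockout array 2 the lowest of its group and still above wild type. Mlst8, a subunit of both mTOR complexes, changed by -0.55. Deptor, another inhibitor of mTOR, changed by -0.24, a call lost in every run that left out 1 array (adjusted p = 0.075 to 0.18), with no filter (0.087), with quantile normalization (0.060) and with a common median (0.063). Rheb, the activator of mTORC1, differed by 0.09, Eif4ebp2 by 0.01 and Rictor by 0.05, and these did not pass.

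Among 18 tested direct regulators of FOXO proteins, 1 fell and 17 did not pass (median 0.05), a share close to the 5.87% of all named genes called lower. That gene was Stk4, the kinase MST1 that phosphorylates FOXO proteins under oxidative stress, with a change of -0.29. Leaving out wild-type array 1, 2 or 3 ended this call (adjusted p = 0.062, 0.087 and 0.084). Ywhae and Ywhaz, whose 14-3-3 proteins hold phosphorylated FOXO in the cytoplasm, differed by 0.09 and 0.06, and the acetyltransferase gene Crebbp by 0.08.

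Targets of FOXO proteins that act in cell cycle arrest and death moved both ways. Among the 14 tested there were 5 rises, 5 falls and 4 genes that did not pass, with a median of -0.01. Trib1, a pseudokinase, measured 10.49, 10.14 and 10.43 in knockout HSCs, against 9.23, 9.28 and 9.22 in wild-type HSCs, a rise of 1.11. Cdkn1a, the p21 inhibitor of cyclin-dependent kinases, rose by 1.03, the cell death gene Bcl2l11 (BIM) by 0.58 and the repressor gene Bcl6 by 0.57. Btg1, an antiproliferative gene, rose by 0.38, a call kept only without knockout array 3 among the runs with 1 array left out (adjusted p = 0.053 to 0.13 in the other 5). The arrest genes Cdkn1b (p27) and Rbl2 (p130), both classic FOXO targets, fell by 0.59 and 0.43. Also lower were Ccnd2, a cyclin that FOXO proteins repress, with -0.44, the death ligand gene Tnfsf10 with -0.44 and Klf6 with -0.18. Btg1, Cdkn1b, Rbl2, Tnfsf10 and Klf6 were chosen after their values were seen. Cdkn1b and Tnfsf10 lost their calls without knockout array 1 (adjusted p = 0.052 and 0.054) and without wild-type array 1 (0.082 and 0.084), 2 (0.090 and 0.067) or 3 (0.069 and 0.10). Rbl2 lost it without wild-type array 2 (0.052) or 3 (0.058), and Klf6 without knockout array 2 (0.069) or wild-type array 1 (0.077), 2 (0.067) or 3 (0.10). The Klf6 call also ended with quantile normalization (0.10), a common median (0.053) or no intensity trend (0.10), and that of Btg1 with quantile normalization (0.084), a common median (0.068) or no filter (0.0504). Cited2, Ccng2 and Gadd45a differed by -0.24, -0.14 and 0.14 and did not pass.

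Targets in stress resistance, metabolism and autophagy included 3 falls among 16 tested genes (median -0.11), beside 5.87% lower over all named genes, and 13 did not pass. Fbxo32, the muscle atrophy ubiquitin ligase atrogin-1, measured 6.01, 5.92 and 5.90 in knockout HSCs, against 6.52, 6.59 and 6.61 in wild-type HSCs, a change of -0.63. Sesn1, a sestrin that limits oxidative stress and mTORC1, changed by -0.59 and the autophagosome gene Gabarapl1 by -0.53. Sesn1 lost its call without knockout array 3 (adjusted p = 0.057) or wild-type array 2 (0.073) or 3 (0.077). Gabarapl1 lost it without knockout array 3 (0.053) or wild-type array 1 (0.072), 2 (0.055) or 3 (0.089). Cat, encoding catalase, differed by -0.15, Sesn3 by -0.18 and the autophagy kinase gene Ulk1 by -0.11, and these did not pass.

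Of 6 tested lymphocyte genes linked to FOXO1, 3 fell, 1 rose and 2 did not pass (median -0.25). Il7r, the interleukin-7 receptor gene that FOXO1 activates in lymphocytes, measured 5.17, 5.38 and 5.30 in knockout HSCs, against 6.33, 6.32 and 6.45 in wild-type HSCs. Its change of -1.08 (SE 0.08; limma adjusted p = 0.0010) ran opposite to that of Foxo1. Ikzf1, a lymphoid transcription factor, fell by 0.53 and Cd69, an activation antigen, by 0.50. The egress receptor gene S1pr1 rose by 0.35, a call kept only without knockout array 3 among the runs with 1 array left out (adjusted p = 0.069 to 0.097 in the other 5) and lost with a common median (0.052). Klf2 and Ccr7, which guide lymphocyte traffic, differed by 0.37 and 0.01 and did not pass.

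Of 12 tested genes listed for MondoA partners, the thioredoxin system and glucose uptake, 6 rose and 6 did not pass (median 0.23). The 6 rises include Nlrp3, which belongs to none of these groups and was listed because its protein binds TXNIP. Of the 6 calls, 3 held in every run that left out 1 array, Nlrp3 among them. Slc2a1, the glucose transporter GLUT1 whose uptake TXNIP restrains, measured 11.30, 11.00 and 11.36 in knockout HSCs, against 10.07, 9.98 and 10.08 in wild-type HSCs. Its change was 1.18 (SE 0.10; limma adjusted p = 0.0017), or 2.26-fold. Hk2 and Hk1, hexokinases that trap glucose in the cell, rose by 0.71 and 0.30, the transporter gene Slc2a6 by 0.45 and Txn1, encoding thioredoxin and chosen after its value was seen, by 0.28. Nlrp3, whose inflammasome protein binds TXNIP, rose by 2.78. Hk1 kept its call only without knockout array 2 among the runs with 1 array left out (adjusted p = 0.069 to 0.10 in the other 5), and Txn1 lost it in all 6 (0.067 to 0.16). With a common median both were lost (0.083 for Hk1 and 0.085 for Txn1), and Txn1 also with no filter (0.068) or no intensity trend (0.059). Slc2a6 lost its call without wild-type array 2 (0.052) or 3 (0.056). Mlxip, which encodes MondoA itself, measured 11.80, 11.64 and 11.56 in knockout HSCs, against 11.65, 11.66 and 11.63 in wild-type HSCs, a difference of 0.02 that did not pass. Txnrd1 differed by 0.18 and the transporter gene Slc2a3 by -0.10, also without passing.

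Of 15 tested genes of other arrestins and of the NEDD4-type ubiquitin ligases that alpha-arrestins recruit, 2 fell and 13 did not pass (median -0.06). Both were ligases. Nedd4 measured 12.99, 12.90 and 12.90 in knockout HSCs, against 13.40, 13.41 and 13.43 in wild-type HSCs, a change of -0.48 (SE 0.05; limma adjusted p = 0.0023). Itch, the ligase that ubiquitinates TXNIP, measured 8.90, 8.91 and 8.96 in knockout HSCs, against 9.39, 9.32 and 9.37 in wild-type HSCs, a change of -0.44 (SE 0.05; limma adjusted p = 0.0063). Both calls held in all 6 runs that left out 1 array. Tsg101, Smurf2 and the ligase adaptor gene Ndfip1 differed by 0.16, 0.18 and -0.09 and did not pass.

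**Figure D4:**
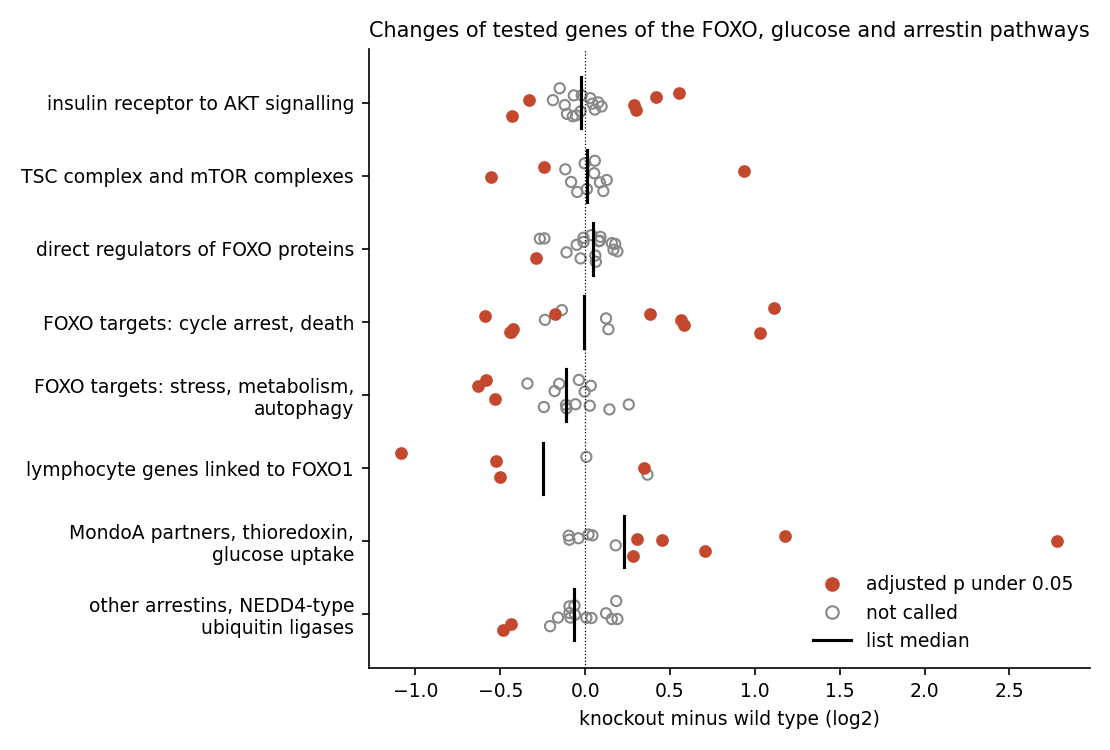
Change of every tested gene in the 8 pathway lists (horizontal axis, knockout minus wild type on the log2 scale), filled red where the adjusted p was under 0.05 and open otherwise, with the list median as a black line. Called genes lie on both sides of 0 for targets of cell cycle arrest and death. The glucose list, which also holds the inflammasome gene Nlrp3, reaches from -0.10 to Nlrp3 at 2.78.

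The genes whose pattern over the 6 arrays lay nearest to Foxo1 and to Txnip were found by the root mean square difference of mean-centred levels, among 12762 protein-coding genes. Sqstm1, the autophagy receptor p62, was nearest to Foxo1 with a difference of 0.046, followed by the kinase gene Mapk6 with 0.056 and Coq10b with 0.060. Sqstm1 measured 13.15, 13.06 and 13.15 in knockout HSCs, against 12.27, 12.15 and 12.13 in wild-type HSCs. Dntt, the terminal transferase of lymphoid-primed cells, was nearest to Txnip with 0.047, followed by the lymphocyte GTPase gene Gimap6 with 0.069 and the blood transcription factor gene Lyl1 with 0.097. Dntt measured 11.35, 11.37 and 11.48 in knockout HSCs, against 12.77, 12.68 and 12.78 in wild-type HSCs. These genes were picked for likeness over the same arrays, so no test attaches to them.

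**Figure D5:**
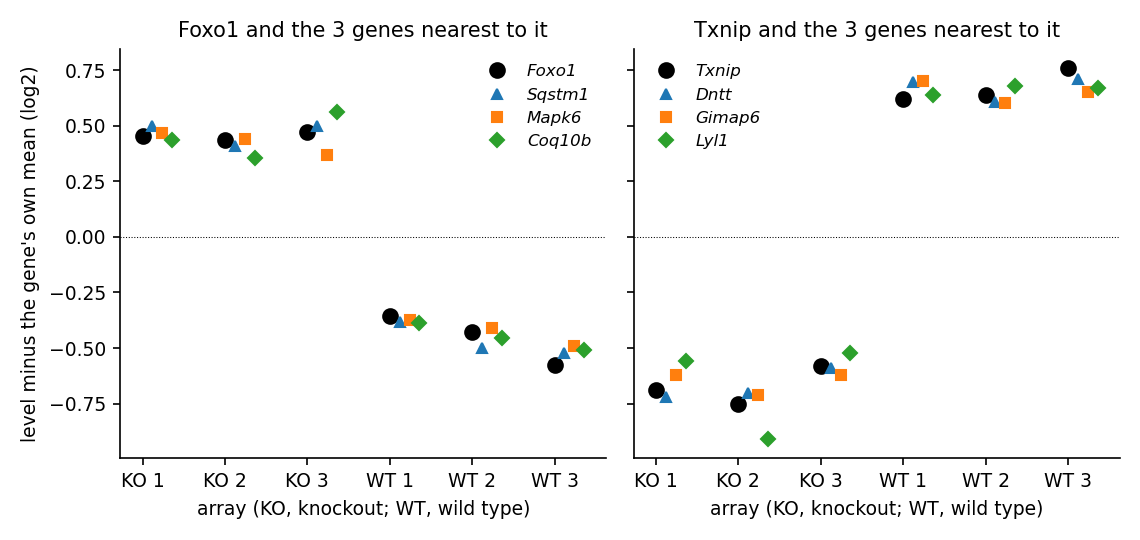
Level of each gene minus its own mean over the 6 arrays (vertical axis, log2) on the knockout (KO) and wild-type (WT) arrays, for Foxo1 (left) and Txnip (right) in black and the 3 nearest genes of each in colour. The points of each panel lie close together. Over the 6 arrays the root mean square difference is at most 0.060 for Foxo1 and 0.097 for Txnip. On a single array a gene can lie further away than that.

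Some markers of other blood cells were also called, beside 3.51% higher and 5.87% lower over all named genes. The lists are short, so a single call is not read as a shift of that cell type. Fewer cells of a type in the sort and less RNA per cell cannot be told apart in bulk arrays. Of 8 tested B cell markers 4 fell, Ebf1 by 0.83, Blnk by 0.64, Cd79a by 0.61 and Igll1 by 0.46. The Igll1 call was kept only without knockout array 1 among the runs with 1 array left out (limma adjusted p = 0.051 to 0.084 in the other 5). Igll1 averaged 3.93 in knockout HSCs, under the filter limit of 4.09, and 4.39 in wild-type HSCs. It passed the filter only through its wild-type level, so its call is not read as a fall of that marker. The other 4 tested B cell markers did not pass. Among them was Cd79b, the brightest of the list, which differed by -0.09 (limma adjusted p = 0.64). Vpreb1 and Vpreb3 differed by 0.02 and -0.09. Pax5 at 4.26 and 4.34 lay near the filter limit, and Ms4a1 below it. The fall was thus not shared by all measurable B cell markers. The summed linear level of the B cell markers, on the log2 scale, was 8.46 to 8.51 in knockout HSCs, against 8.75 to 8.80 in wild-type HSCs. Of 6 tested megakaryocyte markers 3 rose, Itga2b, Gp9 and Itgb3, with a summed level of 9.33 to 9.45 in knockout HSCs, against 8.90 to 8.98 in wild-type HSCs, and Ppbp and Gp6 were too dim to test. Itgb3 lost its call without knockout array 1 (adjusted p = 0.057) or 3 (0.053) or wild-type array 1 (0.053) or 2 (0.062). Of 10 granulocyte and macrophage markers 2 rose, Itgam and Prtn3, with sums of 16.92 to 16.99 in knockout HSCs, against 16.99 to 17.00 in wild-type HSCs. Itgam lost its call without wild-type array 2 (0.072) or 3 (0.075), and Prtn3 kept it only without knockout array 2 (adjusted p = 0.080 to 0.15 in the other 5 runs) and lost it with no filter (0.064), a common median (0.063) or no intensity trend (0.0503). Of 5 tested mast cell and basophil markers 1 rose, Cpa3 by 0.41, with sums of 13.06 to 13.12 in knockout HSCs, against 12.68 to 12.81 in wild-type HSCs, a call lost without wild-type array 3 (adjusted p = 0.051). Of 6 tested erythroid markers 1 fell, Car1 by 1.04. The erythroid sums were 13.59 to 13.76 in knockout HSCs, against 13.67 to 13.71 in wild-type HSCs. Linear sums follow the brightest gene of a list. In knockout and wild-type HSCs, the erythroid marker Car2 averaged 13.67 and 13.63. Mpo in the granulocyte and macrophage list averaged 16.87 and 16.93, and Cpa3 in the mast cell list 12.93 and 12.52. The sums of these lists thus mostly follow a single gene each. Of 5 tested T and NK cell markers 1 rose, Gzmb by 0.83, with sums of 7.95 to 7.97 in knockout HSCs, against 7.78 to 7.85 in wild-type HSCs. The part of these marker shifts in the changes of Txnip, Foxo1, Irs2 and Il7r was not tested.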

How the data were processed

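RNA of sorted HSCs was labelled with biotin and hybridised to 6 arrays, 3 per genotype. The deposited table holds values that the authors derived per transcript cluster (65956 in all), read here as log2, from 2.04 to 19.93 with 2 decimals. MAS5 is named without version or role, per the submitters' processing notes. Background correction, probe summary, normalization and log base are not stated there, and log2 was inferred from the range. A compressed scale would understate folds. Symbols came from the platform annotation and were updated for 827 clusters through the RefSeq table. Some list genes had no cluster under a single symbol and were not analysed here.

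Clusters under a mean of 4.09 (the dimmest 40%) were left out, and genotype was fitted on 39591 clusters with limma 3.58.1 in R 4.3.3 (empirical Bayes with intensity trend, two-sided, Benjamini-Hochberg adjusted). SDs are over 3 arrays, and SEs and 95% intervals are moderated. The fit was tested on simulated data. The 9 genes and all lists were chosen with earlier results of these data known. Named genes were the 9, the nearest patterns, and from each pathway list up to 5 called genes by smallest p and the 3 brightest not called. The 7 called list genes named beyond this rule (Phlpp1, Btg1, Cdkn1b, Rbl2, Tnfsf10, Klf6 and Txn1) and the markers of other cell types were picked with their values known. Alternatives changed the filter, scaling, trend, pairing and arrays used. Tables and plots used Python 3.11.15, pandas 2.3.3 and matplotlib 3.10.9. No scan dates, batches or detection calls were used. Precision is limited by the number of arrays. P-values weigh the genotype difference against a moderated spread between these arrays. Whether that spread is between single mice is not known, since the animals behind each array are not given.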

Additional observations from a re-analysis of the deposited data

How the results depend on the processing

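The calls of Foxo1, Irs2 and Txnip held under no filter, the stricter filter, quantile normalization, a common median, no intensity trend, the replicate block and each run that left out 1 array. Their changes ranged from 0.85 to 0.96 for Foxo1, 1.30 to 1.41 for Irs2 and -1.39 to -1.30 for Txnip. The count of the 9 genes called lower became 2 after quantile normalization and 2 with the dimmest 60% left out, through Foxo3. Each of the 9 has 1 cluster, so averaging clusters changed nothing. Without 1 array, 10 to 13 pathway genes were called higher and 9 to 15 lower, against 17 and 18 with all arrays. Shifting arrays to a common median left 11 called higher. Deviations of same-numbered arrays correlated at -0.14, -0.10 and 0.02, and those of differently numbered arrays at -0.13 to 0.21. With so few arrays, centred within each group, these values cannot decide whether replicate numbers pair the arrays. With the replicate block, 10 pathway genes were called higher and 10 lower. Calls of Pik3cd, Sgk1, Phlpp1, Deptor, Stk4, Sesn1, S1pr1, Slc2a6, Hk1 and Txn1 were lost with the block. So were those of Cdkn1b, Rbl2, Tnfsf10, Klf6 and Btg1, and of the markers Igll1, Itgam and Prtn3. Their limma adjusted p with the block ran from 0.0502 for Slc2a6 to 0.16 for Deptor. The cause of these shifts in counts was not tested, though fewer arrays and the block both leave fewer degrees of freedom.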
